A study of Mus musculus with 45 samples.

Results

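Hippocampal RNA of 5xFAD mice was compared between 12 and 4 months of age. The 12 libraries were chosen by their sample titles, 7 of 12 months and 5 of 4 months whose titles name 5xFAD and no Csf1r-cre, and they are part of 45 libraries in 8 groups. All mice of the series are labelled C57BL/6 with floxed Apoe, Apoe(fl/fl), so both ages and the controls carry the floxed gene. 5xFAD mice carry human transgenes, among them APP, with familial Alzheimer mutations under the Thy1 promoter, which is active in neurons, and Csf1r-cre expresses Cre recombinase, which cuts floxed genes, in microglia and other myeloid cells. The comparison groups were 8 controls of 4 months and 3 of 12 months without either transgene, and 4 and 5 libraries of 4 and 12 months with 5xFAD and Csf1r-cre. Csf1r-cre libraries without 5xFAD, 6 of 4 months and 7 of 12 months, entered the fit over all 45 libraries. They served as added controls in 1 alternative. The strain entry of the 12-month 5xFAD samples names Csf1r-cre while their titles do not. Group names here follow the titles, since a 5xFAD group without Cre is listed in the design. The labels give neither sex nor litter and do not tie libraries to individual animals, so the tests weigh differences against the spread among libraries, which may be technical.

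In 5xFAD mice amyloid plaques build up with age, and the hippocampus is among the regions where they form. Microglia that surround plaques are known to take up a state with high Itgax, Cst7 and Spp1 that depends on the lipid receptor Trem2, and astrocytes nearby raise their filament protein Gfap. Oligodendrocytes in such brains are known to express C4b and Serpina3n, and antigen presentation, complement and interferon genes mark the inflamed tissue.

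Each library was read as TPM, a transcript level per gene length scaled to the same total in every library. Estimated from the lowest values above 0 and the gene lengths, a single read on 1000 bases equals about 0.0573 to 0.0838 TPM across the 12 libraries. No library duplicated another: the closest pair among the 12 correlated at 0.984 over genes. A single short noncoding RNA, Gm23935, took 6.93% to 28.2% of all TPM at 4 months (median 11.9%) and 3.99% to 9.26% at 12 months (median 5.89%), which lowers every other gene of a library in proportion. An annotated ribosomal RNA, CT010467.1, also differed: 609 to 11987 TPM at 4 months against 303 to 582 at 12 months. The ages may have been prepared and sequenced at different times, which the labels do not give, and such a difference cannot be told apart from age. The calls of every comparison over all genes were therefore counted both on TPM and after median-of-ratios scaling, which sets the typical gene equal between libraries. Fits with libraries left out and list counts with Csf1r-cre were on TPM only. Markers of neighbouring regions varied between libraries at both ages: the summed TPM of 14 striatum genes ran from 169 to 1661 at 4 months and from 315 to 2681 at 12 months, and that of 10 choroid plexus genes from 32.3 to 1439 and from 35.8 to 2692. Xist was at 1 TPM or more in 3 of 5 and 4 of 7 libraries. In the whole series 12-month Csf1r-cre replicate 2 and 12-month control replicate 2 stood apart, with median correlations to the rest of 0.886 and 0.939. Neither is a 5xFAD library. Both enter the 5xFAD comparison through the gene filter and the spread shared by all groups, and with scaling also through the size factors.

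**Figure D1:**
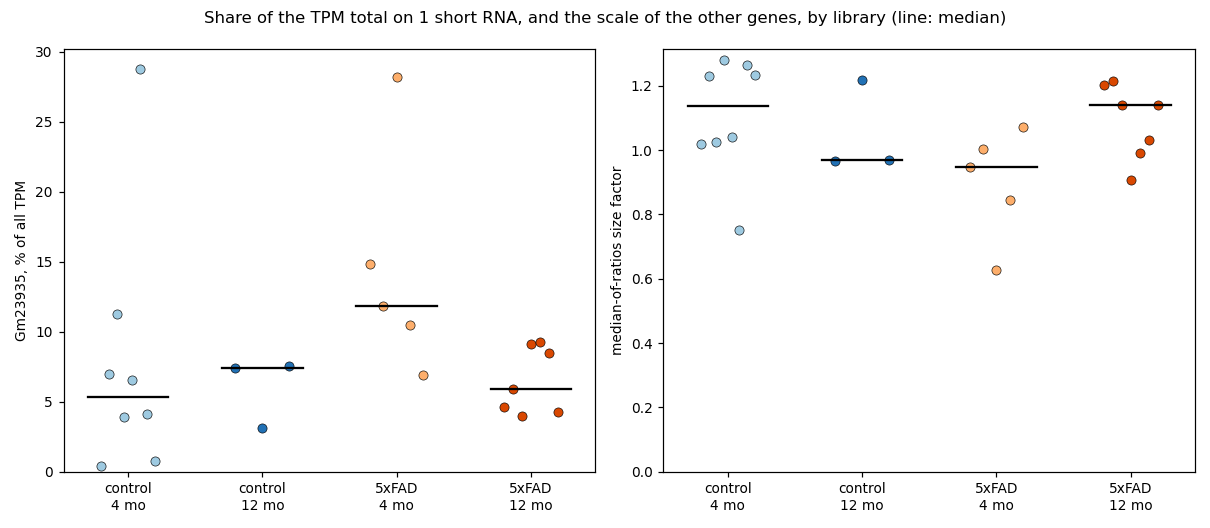
Left, share of all TPM on Gm23935 in each library, in percent; right, the median-of-ratios size factor of each library, without unit. Points are libraries of the controls and of 5xFAD mice at both ages, lines are medians; the 4-month 5xFAD libraries held 6.93% to 28.2% and the 12-month ones 3.99% to 9.26%.

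Between 4 and 12 months in the 5xFAD hippocampus, genes called higher included many of microglia, antigen presentation, complement, lysosomes, reactive astrocytes and disease-associated oligodendrocytes, and few genes were called lower. Of 18659 genes tested with limma, 501 (2.69%) were called higher at 12 months and 4 (0.0214%) lower, at an adjusted p under 0.05, and 2566 had an unadjusted p under 0.05. Among the higher genes, 485 were protein coding, 271 had a log2 fold change above 1 and 27 above 2. In 590 genes (3.16%) every 12-month library lay above every 4-month one, and in 3 (0.0161%) every one lay below. The median log2 fold change of all genes was 0.23 on TPM and 15208 of them (81.5%) had a positive value, so a positive sign or a small positive value is near what the typical gene showed. After median-of-ratios scaling that median was 0.00, and 213 genes were called higher and 8 lower, of which 202 were called in the same direction on TPM. Without 4-month replicate 3, the library with most Gm23935, 192 genes were called, without 4-month replicate 1 or 2 it was 241 or 283, and without 12-month replicate 6 it was 309. Without the pair of libraries that stand apart it was 1109.

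The floxed gene and genes tied to the transgenes were read first. App, the mouse counterpart of the APP transgene, read 455, 443, 170, 186 and 465 TPM at 4 months and 332 to 704 TPM (median 544) at 12 months. Whether reads of human APP were counted with the mouse gene is not given in the sources used here. The ages overlapped. Thy1, whose promoter drives the transgenes, read 1474, 1900, 1019, 1325 and 1233 TPM against 1420 to 2525 (median 1945). Apoe, the floxed gene and a lipid carrier of astrocytes and microglia, read 3063, 2841, 1945, 2564 and 3706 TPM against 2793 to 4895 (median 3805). These also overlapped. By exact two-sided permutation tests, with p-values adjusted over 4 genes, Apoe (log2 difference 0.50, adjusted p = 0.0421) and Thy1 (0.46, 0.0421) were higher at 12 months and App (0.69, 0.0606) did not pass. The smallest p this test can give is 0.00126. With median-of-ratios scaling neither passed: the differences were 0.21 for Apoe, 0.16 for Thy1 and 0.39 for App, with adjusted p of 0.0606, 0.333 and 0.143, and limma called none of them on either scale. Apoe also missed the threshold without 4-month replicate 3 or 4 or without 12-month replicate 1, 3, 5, 6 or 7, at adjusted p of 0.0519 to 0.101, as did Thy1, which also missed it without 4-month replicate 5 (0.0576). App passed without 4-month replicate 1 (0.0424) or 2 (0.0394) or 12-month replicate 4 (0.0303).

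Genes of microglia around plaques, the longest list, held the largest number of calls. Of 34 tested genes of this program, 22 (64.7%) were called higher, beside 2.69% of all genes, and none lower. The shares of class I (86.7%), class II (83.3%) and disease-associated oligodendrocyte genes (72.7%) were larger. The program's median log2 fold change was 1.40 beside 0.23 for all genes. After scaling, 16 were called and the median was 1.13. In 19 of the 34 the ages did not overlap, beside 3.16% of all genes. Spp1, a secreted phosphoprotein, read 4.08, 4.89, 4.59, 12.4 and 8.93 TPM at 4 months and 55.0 to 144 TPM (median 69.8) at 12 months. The lowest 12-month library was above every 4-month one, and the log2 fold change was 3.68 (SE 0.63, adjusted p = 0.000388). Itgax, an integrin subunit of myeloid cells, read 0.591, 0.833, 1.19, 5.41 and 5.97 TPM against 19.5 to 29.2 (median 20.6), a log2 fold change of 3.22 (with SE 0.39 and adjusted p = 1.74e-06). The 4-month libraries were far from alike here, with replicates 4 and 5 well above the others, while the 12-month ones lay close together. Cst7, an inhibitor of cathepsins, read 2.13, 2.74, 4.89, 20.2 and 6.86 TPM against 32.5 to 58.8 (median 55.1), and Gpnmb, a lysosomal membrane glycoprotein, read 2.81, 5.23, 0.991, 3.85 and 3.25 TPM against 17.1 to 44.9 (median 25.1). Their log2 fold changes were 3.00 and 2.99, with no overlap. Clec7a, a receptor for beta-glucans, reached 2.74 and Cybb, the catalytic subunit of the phagocyte NADPH oxidase, 2.29. The Trem2 receptor itself read 15.3, 21.7, 28.8, 57.9 and 31.3 TPM against 59.7 to 116 (median 86.3). Its log2 change of 1.55 (SE 0.25, adjusted p = 0.000135) stood beside 1.74 for the endosomal protein Cd68 and 1.08 for Tyrobp, the signalling adaptor of Trem2, whose call was lost with scaling (adjusted p = 0.37). Trem2, Cd68 and Tyrobp lie outside the naming rule and were picked after their values were seen. Those that did not pass included the receptor Axl, whose adjusted p was 0.05 on TPM and 0.00817 with scaling, the cytokine Csf1 (0.0658), the galectin Lgals3 (0.204) and the lipase Lpl (0.567).

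**Figure D2:**
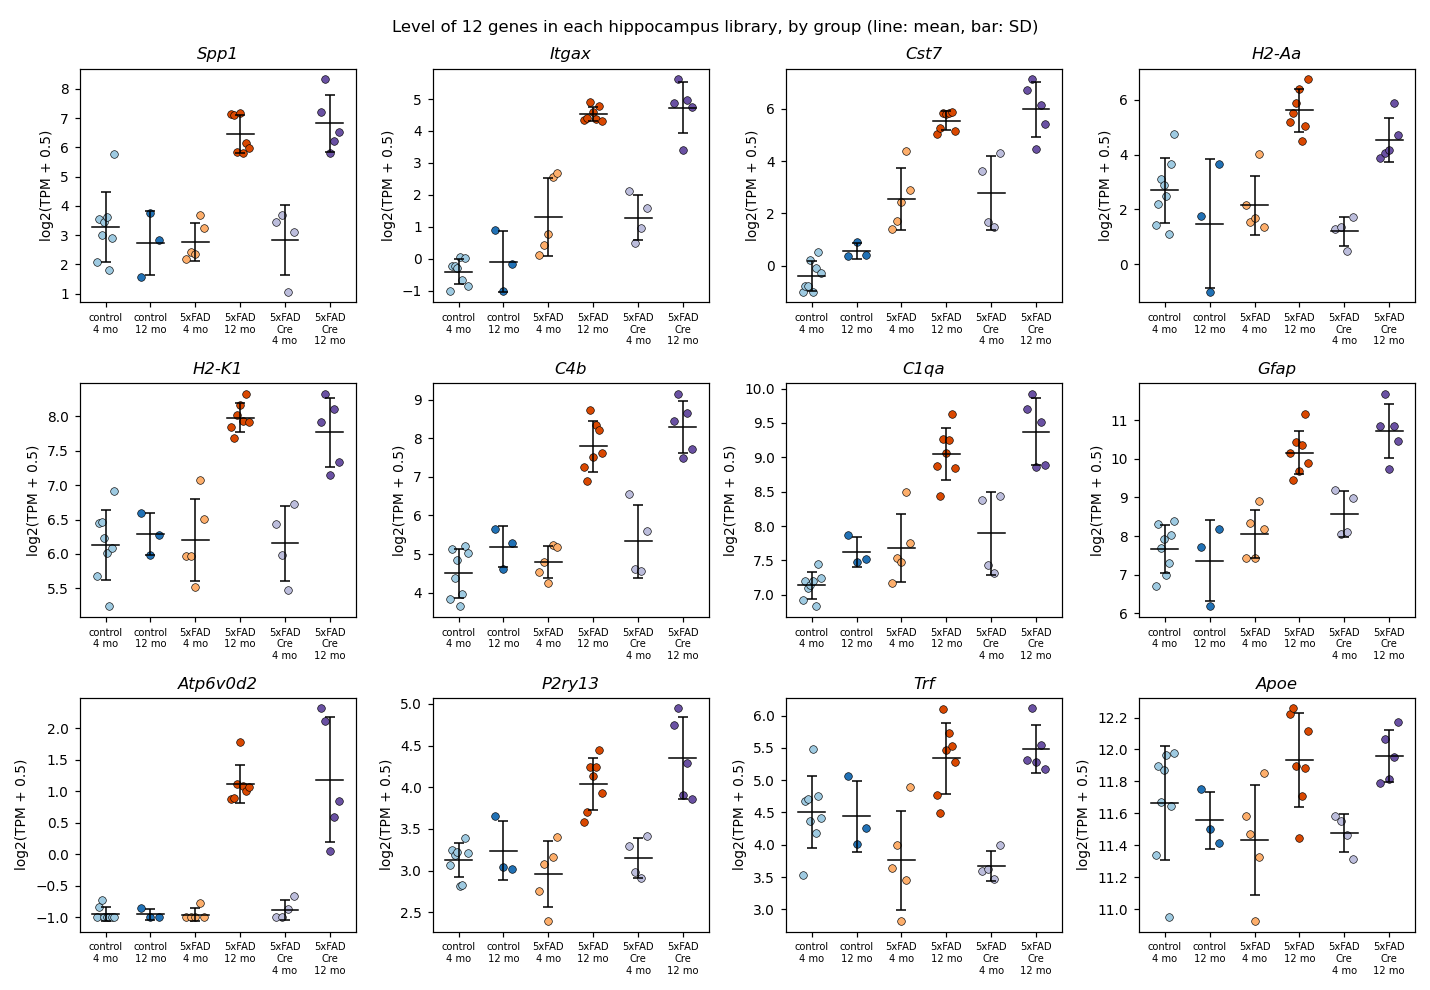
Levels of 12 genes as log2(TPM + 0.5) in each library of the controls, 5xFAD and 5xFAD Csf1r-cre (labelled Cre) at 4 and 12 months; points are libraries, lines are means and bars are SD. Spp1 lay at 55.0 to 144 TPM in 12-month 5xFAD libraries and at 4.08 to 12.4 in 4-month ones, while Apoe overlapped between the ages.

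Of 18 tested markers of resting microglia, 10 were called higher on TPM (55.6%, beside 2.69% of all genes) and none lower. Their median log2 fold change was 0.88, and all 18 were positive beside 81.5% of all genes. After scaling, 15 of the 18 did not pass, 3 were called and the median was 0.59. P2ry13, a purine receptor, read 6.23, 7.95, 4.76, 8.49 and 10.1 TPM at 4 months and 11.5 to 21.3 TPM (median 17.1) at 12 months, and Fcrls, an Fc receptor-like protein, read 25.1, 47.3, 29.7, 68.8 and 60.6 TPM against 71.6 to 139 (median 95.0). Neither overlapped, with log2 fold changes of 1.08 and 1.16, both called on either scale. The call of Fcrls was lost without 4-month replicate 1 or 3. Olfml3 had 0.98 and was not called with scaling (adjusted p = 0.221). P2ry12, a purine receptor known to be low in microglia near plaques, had 0.66 with an adjusted p of 0.119. In whole tissue, more microglial cells and more RNA per microglial cell cannot be told apart, and this holds for every cell type below.

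Class II antigen presentation, by which myeloid cells show peptides to helper T cells, had the highest median of all 47 lists, 2.76 on TPM and 2.49 with scaling. Of its 6 tested genes 5 were called higher (83.3%, beside 2.69% of all genes). H2-Aa, the alpha chain of the class II molecule I-A, read 3.94, 2.39, 2.74, 15.7 and 2.05 TPM at 4 months and 22.2 to 107 TPM (median 44.9) at 12 months. H2-Ab1, its beta chain, read 5.71, 3.96, 3.73, 12.9 and 4.12 TPM against 21.6 to 121 (median 41.4). The invariant chain Cd74 read 4.28, 2.34, 1.08, 4.18 and 3.80 TPM against 11.2 to 50.9 (median 30.1). None of the 3 overlapped between the ages, and their log2 fold changes were 3.46 (SE 0.62, adjusted p = 0.0007), 2.93 (SE 0.52, adjusted p = 0.000514) and 3.04 (SE 0.66, adjusted p = 0.00562). H2-Eb1, the beta chain of I-E, had 2.60, also without overlap. In 4-month controls H2-Aa, H2-Ab1 and Cd74 had medians of 5.99, 5.57 and 6.28 TPM. Their highest values there were 26.1, 23.6 and 22.1 TPM, above the lowest 12-month 5xFAD library of each gene. In 12-month controls they reached 12.2, 10.4 and 17.8 TPM. At 12 months replicate 7 was the highest library in H2-Aa and H2-Ab1, and at 4 months replicate 4 was, while replicate 7 was among the 3 lowest 12-month libraries in Cst7, at 35.6 TPM. H2-DMa, a chain of a peptide-loading chaperone, had 0.30 and did not pass.

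Class I antigen presentation, which nearly all cells use, was called higher in 13 of 15 tested genes (86.7%, beside 2.69% of all genes). On TPM the median was 1.30, and with scaling there were 8 calls and a median of 1.02. B2m, the light chain shared by class I molecules, read 182, 225, 157, 387 and 287 TPM at 4 months and 513 to 731 TPM (median 660) at 12 months, a log2 fold change of 1.40 (with SE 0.23 and adjusted p = 0.000236). The heavy chain H2-K1 read 62.5, 62.4, 45.2, 134 and 90.1 TPM against 205 to 319 (median 244), and H2-D1 read 111, 121, 62.5, 171 and 140 TPM against 321 to 497 (median 425). No 12-month library overlapped the 4-month ones in these genes, and log2 fold changes were 1.77 and 1.79. The nonclassical H2-Q7 reached 2.11. Class I heavy chain genes are near-identical in places and reads may be split among them.

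The promoters of these genes were read from RefSeq (build GRCm38.p6, 250 bases before to 50 after each gene's start) because class I and class II genes share a promoter element and interferon-responsive genes share another. Sequences were found for 40 of the 48 called genes of the plaque-associated, class I, class II and interferon lists, and letters were searched on both strands: CTGATTGG (a Y box, as in promoters of the major histocompatibility complex), GAAANNGAA (an interferon response element) and GAGGAAGT (a site of PU.1, the myeloid factor encoded by Spi1). Y box letters on either strand were in 7 of 12 class I promoters (58.3%) and 2 of 3 class II promoters (66.7%), beside 4.31% of all 27025 promoters. These counts do not separate the directions. The interferon element was in 4 of 7 interferon-list promoters (57.1%), 2 of 12 class I (16.7%) and 4 of 18 plaque-associated ones (22.2%), beside 8.57% of all. The PU.1 letters were in 2 of 18 plaque-associated promoters (11.1%), beside 3.28% of all, and in none of the other 3 lists. These are matches of letters in a short window and not measured binding. The 5 promoters with a match and the highest log2 fold changes follow, 5′ to 3′ on the gene's strand, with matches in capitals. They are Spp1 (chr5:104434861-104435160, plus strand), with all 3 elements, H2-Aa (chr17:34287774-34288073, minus strand) and H2-Eb1 (chr17:34305617-34305916, plus strand), with the Y box at -51 and -62 from the start, Cybb (chrX:9469275-9469574, minus strand), with the interferon element at 3 places, and H2-Q7 (chr17:35438905-35439204, plus strand), with the Y box at -16, read on the opposite strand. The windows include the 5′ end of each transcript. In H2-Q7 the letters run opposite to those in H2-Aa and H2-Eb1. Whether they are the element that class I and class II genes share was not tested.
Spp1: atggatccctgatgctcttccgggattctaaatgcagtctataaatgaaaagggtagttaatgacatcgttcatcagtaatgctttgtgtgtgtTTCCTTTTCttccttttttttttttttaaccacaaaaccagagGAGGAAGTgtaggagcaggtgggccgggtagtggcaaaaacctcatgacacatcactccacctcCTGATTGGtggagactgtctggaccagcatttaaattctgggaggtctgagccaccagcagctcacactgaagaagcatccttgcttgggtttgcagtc
H2-Aa: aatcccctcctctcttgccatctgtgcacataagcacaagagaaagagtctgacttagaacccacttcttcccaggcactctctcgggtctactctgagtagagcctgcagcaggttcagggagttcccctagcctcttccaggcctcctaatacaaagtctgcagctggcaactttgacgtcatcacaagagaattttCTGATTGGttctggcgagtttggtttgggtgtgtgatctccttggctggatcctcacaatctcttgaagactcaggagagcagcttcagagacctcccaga
H2-Eb1: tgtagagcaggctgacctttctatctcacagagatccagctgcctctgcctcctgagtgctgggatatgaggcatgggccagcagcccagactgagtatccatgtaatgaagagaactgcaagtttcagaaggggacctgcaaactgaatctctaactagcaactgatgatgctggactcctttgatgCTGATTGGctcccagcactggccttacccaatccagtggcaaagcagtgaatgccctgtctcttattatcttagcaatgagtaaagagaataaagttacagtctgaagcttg
Cybb: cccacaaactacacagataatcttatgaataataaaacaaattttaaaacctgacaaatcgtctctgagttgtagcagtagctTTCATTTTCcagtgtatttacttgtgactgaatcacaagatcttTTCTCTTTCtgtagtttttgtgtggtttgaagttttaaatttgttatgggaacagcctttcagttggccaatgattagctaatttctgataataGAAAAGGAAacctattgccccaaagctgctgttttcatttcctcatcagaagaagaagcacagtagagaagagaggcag
H2-Q7: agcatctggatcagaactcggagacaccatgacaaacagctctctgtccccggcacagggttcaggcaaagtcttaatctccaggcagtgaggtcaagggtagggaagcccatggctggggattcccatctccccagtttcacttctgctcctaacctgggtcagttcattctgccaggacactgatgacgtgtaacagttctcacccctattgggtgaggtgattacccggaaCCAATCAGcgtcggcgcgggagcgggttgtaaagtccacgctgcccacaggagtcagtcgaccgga

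Most interferon response genes did not pass. Of 26 tested, 8 were called higher on TPM, which is 30.8% beside 2.69% of all genes, and 2 with scaling. All 26 were positive, beside 81.5% of all genes, with a median of 1.03 (0.80 with scaling). Irf8, a transcription factor of myeloid cells, read 3.89, 4.72, 5.14, 11.7 and 9.09 TPM at 4 months and 10.1 to 28.1 TPM (median 20.0) at 12 months, overlapping through 4-month replicate 4. Trim30a, an interferon-induced ubiquitin ligase, read 0.773, 0.745, 1.19, 3.56 and 3.06 TPM against 4.90 to 10.5 (median 5.61), without overlap. Their log2 fold changes were 1.43 (SE 0.29, adjusted p = 0.00269) and 1.64 (SE 0.37, adjusted p = 0.00846), and both stayed under an adjusted p of 0.05 with scaling. Ifitm3, a membrane protein that blocks viral entry, had 1.30 and was not called with scaling (adjusted p = 0.0849), nor was Xaf1 (1.11 on TPM, scaled adjusted p = 0.128), whose call also fell without 4-month replicate 1 or 3. The classic interferon targets Ifit1, Isg15, Mx1 and Irf7 did not pass on TPM, with log2 fold changes of 1.01, 0.72, 0.34 and 0.77.

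The complement calls included the classical pathway's first components. Of 12 tested, 7 were called higher on TPM (58.3%, beside 2.69% of all genes) and 7 with scaling, with medians of 1.38 and 1.10. All 12 were positive, beside 81.5% of all genes, and in 7 of the 12 the ages did not overlap, beside 3.16% of all genes. C4b, a classical pathway component, read 22.8, 27.0, 18.5, 37.1 and 36.0 TPM at 4 months and 118 to 429 TPM (median 194) at 12 months, a log2 fold change of 3.00 (with SE 0.42 and adjusted p = 1.7e-05). C1qa, a chain of the recognition molecule C1q, read 144, 186, 177, 359 and 216 TPM against 348 to 794 (median 534), so that 4-month replicate 4 overlapped the lowest 12-month library. C1qb and C1qc, the other chains, had log2 fold changes of 1.40 and 1.50 beside 1.36 for C1qa, and neither of the 2 overlapped. C3, the component on which the pathways converge, read 1.47, 0.607, 0.310, 0.560 and 1.15 TPM against 2.00 to 10.7 (median 3.96). Its log2 fold change of 2.08 passed on TPM (adjusted p = 0.0401) and not with scaling (0.0972), and was lost without any 1 of 4-month replicates 1 to 4 or 12-month replicates 3, 4, 6 or 7 (0.0531 to 0.172).

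Of 27 tested lysosomal genes, 14 were called higher on TPM (51.9%, beside 2.69% of all genes) and 8 with scaling, with medians of 0.75 and 0.46. All 27 were positive on TPM, beside 81.5% of all genes. Atp6v0d2, a subunit of the vacuolar proton pump, was at 0 in 4 of 5 libraries of 4 months and at 0.0854 TPM in replicate 4, and at 1.35 to 2.93 TPM (median 1.61) in all 7 libraries of 12 months. Its adjusted p was 4.97e-08, with a log2 fold change of 2.07 (SE 0.21) on the log2(TPM + 0.5) scale. Ctsh, a cathepsin, read 17.2, 26.4, 24.0, 32.1 and 34.0 TPM against 69.6 to 112 (median 75.7), without overlap, and had 1.63 (SE 0.20, adjusted p = 1.95e-06). Hexa and Npc2, a hexosaminidase subunit and a cholesterol carrier of the lysosome, had 0.75 and 0.73 and were not called with scaling (adjusted p = 0.291 and 0.457).

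In lipid transport 3 of 18 tested genes were called higher (16.7%, beside 2.69% of all genes), 2 with scaling, with a median of 0.62. Apod, a lipocalin that binds lipids, read 345, 306, 144, 200 and 387 TPM at 4 months and 619 to 1150 TPM (median 825) at 12 months, without overlap. Its log2 change of 1.70 (SE 0.40, adjusted p = 0.0105) stayed called with scaling and fell below the threshold without 4-month replicate 3. Soat1, which esterifies cholesterol, had 0.78, a scaled adjusted p of 0.0588 and one of 0.0745 without 4-month replicate 3. None of 18 cholesterol synthesis genes was called, and their median was 0.22, near that of all genes.

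Among 18 tested mouse counterparts of Alzheimer risk loci 6 were called higher (33.3%, beside 2.69% of all genes), 3 with scaling, with a median of 0.59. Spi1, the gene of the myeloid factor PU.1, read 8.26, 10.9, 9.39, 13.8 and 12.6 TPM at 4 months and 17.2 to 34.3 TPM (median 30.6) at 12 months, without overlap (log2 fold change 1.21, SE 0.24, adjusted p = 0.00185). Treml2, a receptor of the Trem family, was low at both ages, at 0.0879 to 0.444 and 0.519 to 1.84 TPM, and had 1.08 (adjusted p = 0.0171), lost without 4-month replicates 1, 2 or 3 or 12-month replicate 3. Clu, Bin1, Picalm and Sorl1 did not pass.

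Of 23 tested genes of reactive astrocytes 11 were called higher on TPM (47.8%, beside 2.69% of all genes) and 8 with scaling. The medians were 1.16 and 0.92, and 1 gene was negative on TPM. No general astrocyte marker passed, and the difference between these lists was not tested. Gfap, the intermediate filament protein of astrocytes, read 171, 322, 173, 478 and 288 TPM at 4 months and 703 to 2281 TPM (median 1142) at 12 months. Vim, another intermediate filament, read 39.2, 41.4, 18.7, 41.1 and 54.2 TPM against 115 to 370 (median 140), and Serpina3n, a secreted protease inhibitor, read 12.0, 27.1, 8.11, 25.0 and 29.1 TPM against 53.6 to 259 (median 101). In all 3 the ages were apart, and replicate 6 was the highest 12-month library. Log2 fold changes were 2.10 (SE 0.38, adjusted p = 0.000702), 2.09 (SE 0.40, adjusted p = 0.00145) and 2.55 (SE 0.45, adjusted p = 0.000462). Lcn2, an iron-binding lipocalin, was at 0 to 0.470 TPM at 4 months and 1.08 to 6.54 TPM (median 2.24) at 12 months, with 2.39 (adjusted p = 0.0167), lost without 4-month replicate 1 or 3. Of the 12 general markers, such as the water channel Aqp4 and the glutamate transporter Slc1a3, none passed on either scale, and their median was 0.47 (0.18 with scaling).

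Disease-associated oligodendrocyte genes were mostly called and myelin genes mostly not. Of 11 tested genes of the disease-associated state 8 were called higher on each scale (72.7%, beside 2.69% of all genes on TPM). The medians were 1.47 and 1.21, and C4b, Serpina3n and H2-D1 are shared with lists above. Klk6, a secreted protease of oligodendrocytes, read 15.6, 6.21, 5.89, 9.16 and 13.2 TPM at 4 months and 15.4 to 85.9 TPM (median 45.9) at 12 months, overlapping through 4-month replicate 1. Its log2 fold change was 2.07 (SE 0.46, adjusted p = 0.00675). Of 16 general and myelin genes 5 were called higher on TPM (31.2%) and 1 with scaling, with medians of 1.02 and 0.73. The 1 called with scaling was Trf, the iron carrier transferrin, at 12.0, 15.5, 6.56, 10.4 and 29.1 TPM against a median of 43.7 and a highest value of 68.3, overlapping through 4-month replicate 5, with 1.58 (SE 0.35, adjusted p = 0.00601), lost without 4-month replicate 3. Mbp, a main protein of myelin, read 2531, 1934, 1216, 1276 and 2843 TPM against 2446 to 6072 (median 4071), and its adjusted p of 0.0479 was lost in 17 of 24 alternatives. The summed TPM of the 16 genes ran from 2293 to 6843 at 4 months and from 5951 to 13451 at 12 months. White matter taken along in the dissection was not measured, and its part in these values was not tested.

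**Figure D3:**
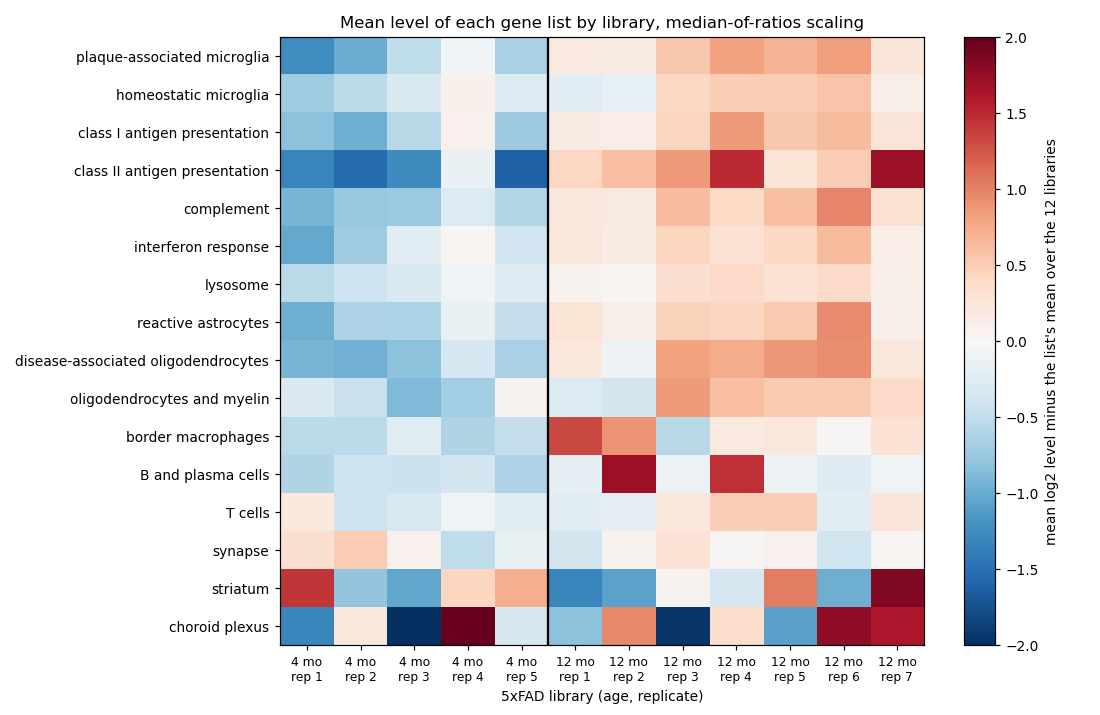
Mean level of 16 gene lists in each 5xFAD library after median-of-ratios scaling, as the mean log2 level minus the list's mean over the 12 libraries (color, -2 to 2); columns are libraries, with a line between 4 and 12 months. The plaque-associated and class II lists were above their mean in all 7 libraries of 12 months, while the striatum and choroid plexus lists varied within both ages.

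Of 17 tested cytokines and chemokines 5 were called higher on TPM (29.4%, beside 2.69% of all genes) and none with scaling, with a median of 0.88. The chemokine Ccl3 read 1.46, 2.29, 4.49, 6.33 and 5.19 TPM at 4 months and 6.92 to 20.7 TPM (median 16.2) at 12 months, without overlap, and had 1.75 (adjusted p = 0.0238 on TPM, 0.155 with scaling). The call was lost without 4-month replicate 1, 2 or 3 or 12-month replicate 4 or 6 (0.0505 to 0.121). Of 8 T cell genes only Nkg7, a granule protein of cytotoxic lymphocytes, was called, at 0 to 0.714 against 0.606 to 1.85 TPM, and neither with scaling (adjusted p = 0.102) nor without 4-month replicate 1, 2 or 3 (0.0573 to 0.0863). Of 10 genes of macrophages at the brain's borders 3 were called on TPM (30.0%), and 1 with scaling: the lectin Cd209f, at 0.0542 to 0.705 against 0.957 to 3.35 TPM, with 1.73 (adjusted p = 0.0056). Their summed TPM was 4.47 to 6.45 at 4 months and 5.74 to 45.9 at 12 months, highest in replicates 1 and 2. None of 6 neutrophil genes passed.

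Among 9 tested B and plasma cell genes 1 was called (11.1%, beside 2.69% of all genes), Ighm, the heavy chain of IgM. It read 12.5, 11.3, 10.4, 14.7 and 10.8 TPM at 4 months and 27.5 to 92.2 TPM (median 46.8) at 12 months. The 12-month values lay above every 4-month 5xFAD library, with 2.02 (SE 0.30, adjusted p = 5.3e-05 on TPM and 0.00193 with scaling). In controls Ighm read 7.77 to 40.5 TPM (median 12.7) at 4 months and 19.9 to 37.2 (median 25.1) at 12 months. Both control ranges overlapped that of 12-month 5xFAD libraries. The light chain Igkc read 0.755 to 2.45 TPM at 4 months and 1.40, 2.12, 2.36, 3.30, 5.73, 118 and 287 TPM at 12 months. Its 2 high libraries were replicates 4 and 2, which were also the only ones of the 12 with Jchain, the joining chain of secreted antibody, above 1 TPM (8.69 and 11.9). Igkc did not pass (2.61, adjusted p = 0.229). Cd79a, a B cell receptor subunit, was at most 1.19 TPM in the 12 libraries.

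Senescence genes gave 1 call of 13 (7.69%, beside 2.69% of all genes), Cdkn2a, which encodes cell cycle inhibitors. It read 0.160, 0.155, 0.263, 0.285 and 0.213 TPM at 4 months and 0.166 to 2.89 TPM (median 2.40) at 12 months, so that the lowest 12-month library overlapped. Its log2 fold change was 1.45 (adjusted p = 0.0167), lost with scaling (0.0711) and without 4-month replicate 1 (0.0531), and it was 1.17 in controls, where it did not pass.

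No neuronal list held a call on either scale. The medians on TPM were 0.17 for 25 synapse genes, 0.21 for 12 markers of excitatory neurons, 0.17 for 14 of GABA neurons, 0.28 for 11 of dentate granule cells, -0.05 for 13 of CA pyramidal cells and -0.24 for 13 of immature dentate neurons. With scaling, those of synapse, excitatory and GABA genes turned to -0.12, -0.07 and -0.13. None of 22 immediate early genes or 16 neuropeptides and neurotrophins was called, nor any of 12 endothelial and 12 oligodendrocyte precursor markers. Of the 4 genes called lower, 2 were protein coding. Crym, which binds thyroid hormone, read 125, 273, 183, 104 and 98.8 TPM at 4 months and 15.6 to 152 TPM (median 70.5) at 12 months, and Ly6h, a neuronal surface protein, read 287, 363, 372, 275 and 401 TPM against 172 to 289 (median 201). Both overlapped between the ages. Crym fell by 1.43 (adjusted p = 0.0415) and Ly6h by 0.62 (0.0171) on the log2 scale, and neither was called with scaling, with adjusted p of 0.0734 and 0.0505. Crym was also lost without 4-month replicate 1, 2 or 3 or 12-month replicate 1, 2 or 5 (0.0744 to 0.166), and Ly6h without 4-month replicate 2, 3 or 5 (0.0519 to 0.0806). The other 2 were CT010467.1, described above, and the small nucleolar RNA Gm23136, which was at 0 in all 12-month libraries and in 2 of 5 at 4 months.

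**Figure D4:**
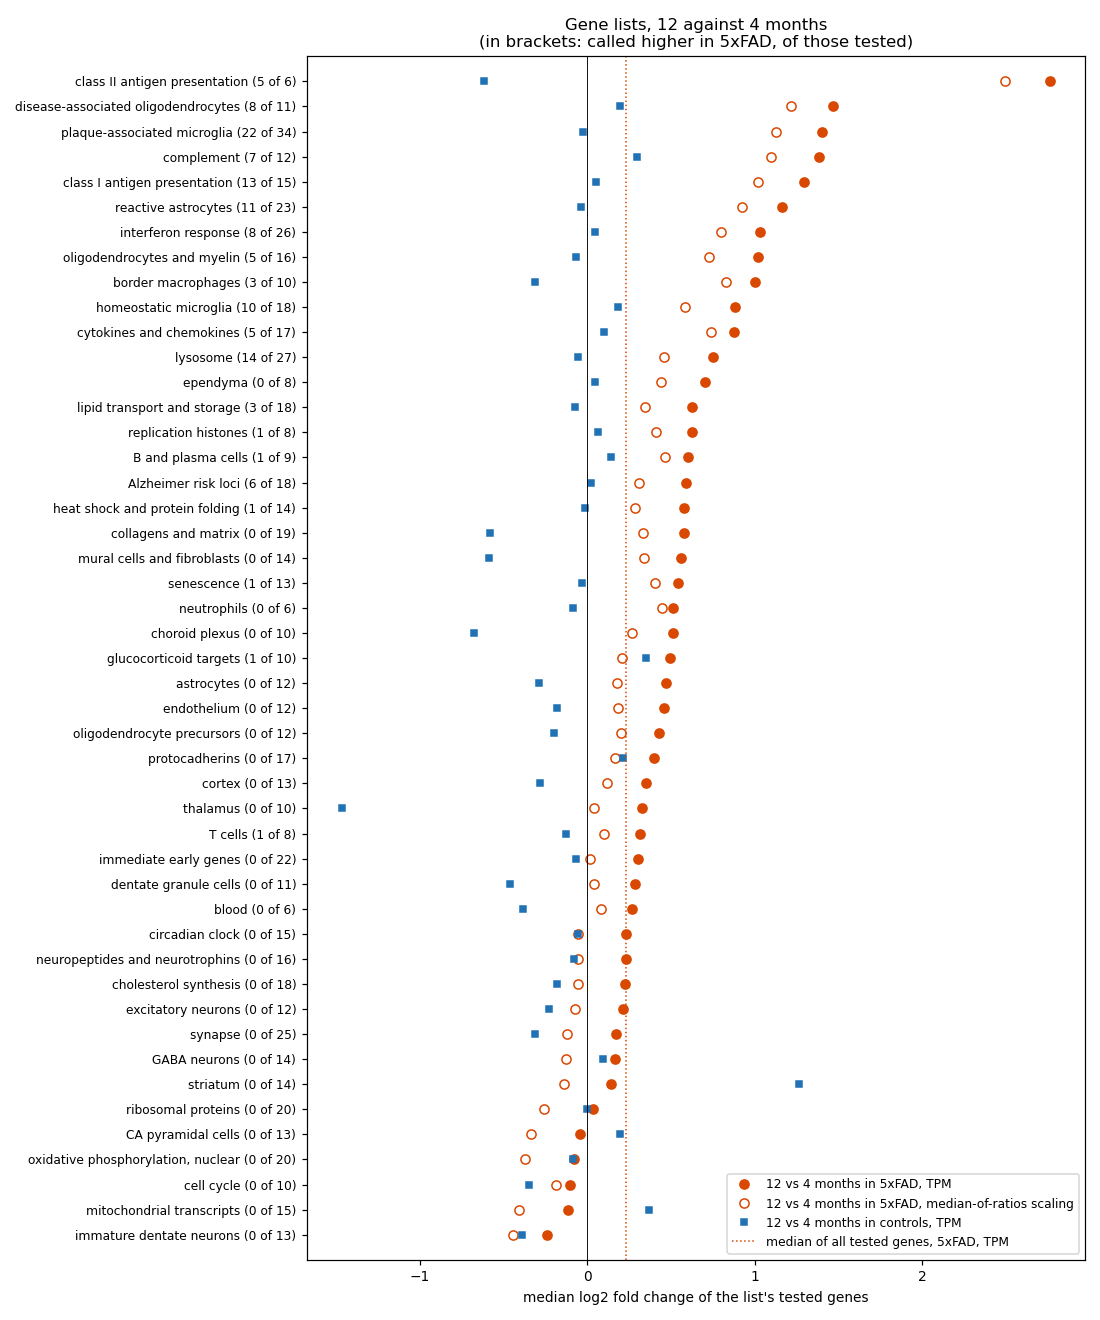
Median log2 fold change of each of 47 gene lists between 12 and 4 months in 5xFAD on TPM (filled circles) and after median-of-ratios scaling (open circles), and in controls on TPM (squares); brackets give the genes called higher of those tested, and the dotted line marks the median of all genes, 0.23. The class II list had the highest median, 2.76 in 5xFAD, and -0.62 in controls.

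To ask whether age alone gave such differences, 12 and 4 months were compared in mice without 5xFAD. No gene was called there by limma in either direction (0%), with 1077 at an unadjusted p under 0.05, and the group of 12 months held 3 libraries. With median-of-ratios scaling 7 genes were called higher and 3 lower, and on TPM it was 6, 2 and 36 genes without 12-month control replicate 1, 2 and 3. Markers of neighbouring regions had median log2 fold changes of 1.26 (striatum) and -1.46 (thalamus) in this comparison, with no gene called, and their part in the result was not tested. The 501 genes higher in 5xFAD had a median log2 fold change of 0.07 in the controls, beside -0.07 for all genes there and 1.05 in 5xFAD, where they were chosen. In controls 295 of them (58.9%) were positive, beside 38.9% of all genes. Every 12-month control lay above every 4-month one in 7 of the 501, beside 42 of all 18659 genes (0.225%), so the share was larger among the 501. The complement list had a control median of 0.29 with 8 of 12 genes positive and the resting microglia list 0.18 with 14 of 18, while the plaque-associated list had -0.02 with 16 of 34. C1qa read 113 to 175 TPM in 4-month controls and 177 to 234 in 12-month ones, without overlap. In controls Itgax was at 0 to 0.530 TPM at 4 months and 0 to 1.36 at 12 months, Cst7 at 0 to 0.956 and 0.783 to 1.40, and Gfap at 104 to 333 and 72.0 to 288, all 3 with overlapping ages. Spp1 was at 3.01 to 53.5 TPM in 4-month controls, highest in replicate 8, and at 2.47 to 13.1 in 12-month ones. Lcn2 was at 0 to 1.17 and 0.417 to 5.13 TPM, and Cd209f at 0 to 3.05 and 0.425 to 0.985.

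The difference between the age differences was tested as an interaction, and 15 genes (0.0804%) were called, all with a positive interaction. The interaction of all genes had a median of 0.31 on TPM, with 80.4% positive, and 0.02 with scaling. All 15 had positive log2 fold changes in 5xFAD, from 0.95 to 3.46, while in controls 12 of them were negative on TPM (10 with scaling) and Plau, Itgax and Ctsh positive, from -1.22 to 0.31, with none called there. They were Atp6v0d2, Mamdc2, Hpse, Plau, Bcl3, Ly9, Ccdc163, Itgax, H2-Aa, Ctse, Ctsh, Il4ra, Ptprc, Cybb and Cd14. Mamdc2, a secreted proteoglycan, read 0.881, 0.465, 0.636, 0.894 and 1.75 TPM in 4-month 5xFAD libraries, 5.70 to 8.96 (median 7.12) in 12-month ones, and 0.219 to 3.10 in all controls. Hpse, an enzyme that cuts heparan sulfate, read 0.166, 0.213, 0.452, 0.882 and 0.489 TPM, then 2.93 to 10.3 (median 4.06), and at most 0.713 in controls. Plau, the urokinase plasminogen activator, read 0.371, 1.11, 0.820, 1.22 and 0.986 TPM, then 4.82 to 8.48 (median 6.58), and at most 1.83 in controls. In each of these genes the 12-month 5xFAD libraries lay above all others of the 4 groups. The interaction was 2.95 for Mamdc2 (adjusted p = 0.00234), 2.82 for Hpse (0.00453), 2.26 for Plau (0.0189) and 2.08 for Atp6v0d2 (0.00201). Ptprc, the leukocyte surface phosphatase, had 1.89, made of 1.31 in 5xFAD and -0.58 in controls, and Cd14, a co-receptor for bacterial lipopolysaccharide, 1.88, made of 1.68 and -0.20. Il4ra, a receptor chain for interleukin 4, had 1.87, about equally from 0.95 in 5xFAD and -0.93 in controls, where it read 1.11 to 4.04 TPM at 4 months and 1.03 to 1.45 at 12 months. The value of 4.68 for H2-Aa came from 3.46 in 5xFAD and -1.22 in controls, where 12-month replicate 2, which stands apart, was at 0. Without that library it was 3.44 in H2-Aa with 0.02 in controls, and did not pass (adjusted p = 0.52). The control values of Ccdc163, Cd14 and Cybb were then 0.02, 0.26 and 0.16, and those of Il4ra and Ptprc -0.83 and -0.36. With scaling 8 genes were called, 6 of them among the 15 (Atp6v0d2, Mamdc2, Hpse, Plau, Ly9 and Il4ra). The count moved with single libraries. Among controls it was 38, 4 and 67 without 12-month replicate 1, 2 and 3 (3 of the 15, Mamdc2, Atp6v0d2 and Plau, among the 4), 24 and 23 without 4-month replicate 1 and 6, and 7 without 4-month replicate 7 or 8. Among 5xFAD libraries it was 4, 6, 3 and 36 without 4-month replicate 1, 2, 3 and 4, and 6, 7 and 9 without 12-month replicate 3, 6 and 7. Without the pair of libraries that stand apart it was 5.

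The age difference was then set beside the one in 5xFAD mice with Csf1r-cre, which shares no library with it. There 608 genes (3.26%) were called higher and 14 (0.075%) lower, and the total was 317 or 311 without 4-month replicate 2 or 3, 271 without 12-month replicate 2 and 1389 without the pair of libraries that stand apart. Of the higher genes, 361 were called in both backgrounds, which is 72.1% of the 5xFAD list and 59.4% of the 5xFAD Csf1r-cre list, and 500 of the 501 had a positive log2 fold change with Csf1r-cre, beside 76.4% of all genes. With scaling 155 were shared, 72.8% and 42.1% of the lists. No lower gene was shared. Spp1, Itgax and H2-Aa had 3.99, 3.44 and 3.33 with Csf1r-cre beside 3.68, 3.22 and 3.46 without, and C4b and Gfap had 2.97 and 2.14 beside 3.00 and 2.10. By list, 23 plaque-associated, 11 class I, 7 complement and 12 reactive astrocyte genes were called with Csf1r-cre beside 22, 13, 7 and 11. The class II list, with the highest median in 5xFAD, had 3 of 6 called with Csf1r-cre beside 5, border macrophages 1 beside 3, and oligodendrocytes and myelin 8 of 16 beside 5. These list counts are on TPM. With scaling the last 3 lists had 4, 1 and 1 called without Csf1r-cre, and counts with Csf1r-cre were not made. A limma test of the difference between the backgrounds called no gene (0%), with 238 at an unadjusted p under 0.05 (1.28%). This does not show that the age differences were equal. The interaction for Cst7 was -0.21 with an SE of 0.71. Apoe read 2546 to 3068 TPM at 4 months and 3539 to 4621 at 12 months in 5xFAD Csf1r-cre libraries.

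**Figure D5:**
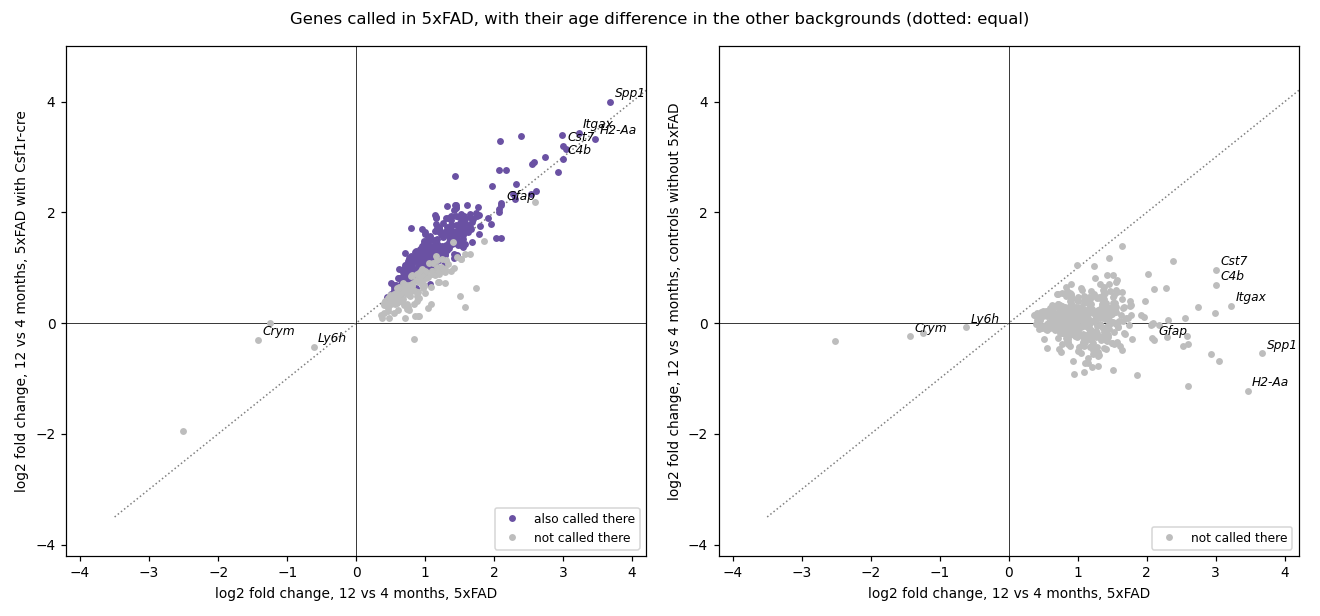
Log2 fold changes between 12 and 4 months of the 505 genes called in 5xFAD (x axis) against those in 5xFAD with Csf1r-cre (left, y axis) and in controls (right, y axis); points are genes, colored where called with Csf1r-cre, and the dotted line marks equal values. Of 501 higher genes 500 were positive with Csf1r-cre, while the same genes had a median of 0.07 in controls, beside -0.07 for all genes.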

How the data were processed

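RNA-seq of mouse hippocampus was read from 1 table of TPM that the authors deposited, with 54532 genes in 45 libraries. Per the submitters' processing notes the tools were STAR, featureCounts, edgeR and limma and the build was mm10; their versions and roles, the strand setting and the treatment of reads with several positions were not given in the sources used here. Near-identical and overlapping genes are therefore uncertain. No counts were used, so a count test was not run.

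From the deposited TPM, log2(TPM + 0.5) was computed for the 18659 genes with at least 0.5 TPM in at least 3 libraries. One mean per group was fitted over all 45 libraries in 8 groups with limma 3.58.1 (R 4.3.3, trended moderated test, two-sided, Benjamini-Hochberg, threshold 0.05), which was tested on simulated data. Fold changes are on this scale and understate the change of low genes. Exact permutation tests were used for 4 genes, among them Apoe, App and Thy1; some genes are not reported here. Genes were named by a rule: those 4 genes, the 15 highest and lowest called fold changes with a mean of at least 1 TPM, the 4 smallest p of each of 47 lists, and the 10 smallest p of the interaction. Trem2, Cd68, Tyrobp, P2ry12, Axl, Csf1, Lgals3, Lpl, H2-DMa, Ifit1, Isg15, Mx1, Irf7, C3, Vim, Clu, Bin1, Picalm, Sorl1, Slc1a3, Mbp, Jchain, Ptprc, Cd14, Il4ra and the noncoding genes fall outside it and were chosen after their values were seen. The members and lists were chosen with earlier results of these data known. Alternatives changed the pseudocount, filter, scaling, fit, covariates and libraries.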

Additional observations from a re-analysis of the deposited data

Results flagged for a closer look

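In 156 groups of libraries, 78 genes at each age, a single library lay far from the others in 17. The cutoff would flag about 5% of groups for normally distributed values of unrelated genes. Here the values were TPM without a log, every flagged library was the highest of its group, and the genes were chosen and partly related. The 17 can therefore not be read as more than chance gives. At 4 months there were 8 such groups, and replicate 4 was the high library in 7 of them. These were H2-Aa at 15.7 TPM, Cst7 at 20.2, H2-Ab1 at 12.9, H2-Q7 at 3.86, Ifitm3 at 66.4, Atp6v0d2 at 0.0854 and Srgn at 31.4. The other was Lcn2 at 0.470 TPM in replicate 5.

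At 12 months there were 9, each with 1 high library. Replicate 6 was high in Ifitm3 at 118 TPM, Trim30a at 10.5, Gfap at 2281, Cxcl16 at 7.88 and Vim at 370. Replicate 3 was high in Tgfb1 at 22.3 TPM. H2-Ab1 was high in replicate 7 at 121 TPM, Atp6v0d2 in replicate 4 at 2.93 and Igkc in replicate 2 at 287.

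The log2 age difference was higher with 5xFAD than without it in 15 genes by limma's interaction test at an adjusted p under 0.05, and the median of all genes was 0.31. In controls 12 of the 15 had negative values on TPM, where 38.9% of all genes were positive, so part of these differences lies there. The lowest were -1.22 for H2-Aa, -0.93 for Il4ra, -0.71 for Ccdc163 and -0.58 for Ptprc, none called. Without 12-month control replicate 2, which stands apart, these 4 were 0.02, -0.83, 0.02 and -0.36. The 15 genes were chosen by a difference that includes the control values. On the log2 scale the difference was 4.68 for H2-Aa (3.44 and not called without 12-month control replicate 2), 2.97 for Bcl3, 2.95 for Mamdc2, 2.91 for Itgax, 2.82 for Hpse and 2.55 for Cybb. It was 2.26 for Plau, 2.11 for Ly9, 2.08 for Atp6v0d2, 1.89 for Ptprc and 1.88 for Cd14. For Il4ra it was 1.87, for Ccdc163 1.86, for Ctse 1.57 and for Ctsh 1.49.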

How the results depend on the processing

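The 505 genes called in 5xFAD became 221 with median-of-ratios scaling, 286 without Gm23935 in the total, 282 with its level as a covariate and 1109 without the pair of libraries that stand apart, and leaving out 1 library gave 192 to 572. In controls the count of 0 became 6 without a filter, 10 with scaling and 2 without that pair, and 0 to 36 with 1 library left out. The 15 interaction genes became 3 at a pseudocount of 0.1, 3 without a filter, 8 with scaling, 5 without that pair, 52 with both groups without 5xFAD as controls, and 3 to 67 with 1 library left out. With Csf1r-cre the 622 became 391 with scaling, 357 with Xist as a covariate, 1389 without that pair and 271 to 851 with 1 library left out. The difference between both 5xFAD backgrounds gave 2 calls without a filter and 0 to 0 with 1 library left out. With scaling the log2 differences of Apoe and Thy1 were 0.21 and 0.16 and no longer passed. With 1 library left out they ran from 0.38 to 0.61 and 0.35 to 0.58, and that of App from 0.47 to 0.83. The deviations of same-numbered libraries correlated at -0.137 to 0.352. The labels do not say whether the numbers pair libraries, and so few correlations cannot decide it. With a replicate block no gene was called in either 5xFAD background, 3 were called in the interaction, and the differences of Apoe and Thy1 were 0.48 and 0.41. Of 73 named genes called on TPM, 48 were called with scaling, 60 without Gm23935, 63 at a pseudocount of 0.1 and 73 at 1. The cause of these shifts was not tested. The number of reads per library is unknown, which limits what low genes can show.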

Other observations

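Between 4 and 12 months in 5xFAD, none passed among 14 mural and fibroblast genes (median log2 fold change 0.56 on TPM and 0.34 with scaling), 12 endothelial genes (0.46 and 0.18), 19 collagen and matrix genes (0.58 and 0.34), 17 protocadherins (0.40 and 0.17) or 8 ependymal genes (0.70 and 0.44). Heat shock and protein folding gave 1 call of 14 (7.14%), replication histones 1 of 8 (12.5%) and glucocorticoid targets 1 of 10, beside 2.69% of all genes, of which the glucocorticoid list alone had a call with scaling. The circadian clock list of 15 genes and the cell cycle list of 10 had none, with medians of 0.23 and -0.10.

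Energy and protein synthesis genes lay below the typical gene. The medians were -0.11 for 15 mitochondrial transcripts, -0.08 for 20 nuclear genes of oxidative phosphorylation and 0.03 for 20 ribosomal proteins, beside 0.23 for all genes, and -0.41, -0.37 and -0.26 with scaling. No gene of these 3 lists was called on either scale. Blood genes (median 0.27), neutrophil genes (0.51) and markers of thalamus (0.33), cortex (0.35), striatum (0.14) and choroid plexus (0.51) also held no call, and the 12 oligodendrocyte precursor markers had a median of 0.43.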
